A study of Bos taurus with 6 samples.

Results

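The transcripts described here encode transcription factors that set and maintain the identity of granulosa cells, the somatic cells of the ovarian follicle from which the cumulus cells around the oocyte derive. Members were all probe sets whose single gene symbol in the platform annotation was GATA4, GATA6, NR5A1, NR5A2, FOXL2, NR4A1, CEBPB, RUNX1, RUNX2 or SOX9. Of these 10 genes, 7 had a probe set, 12 probe sets in all of 24016 tested, and RUNX1, RUNX2 and SOX9 were not analysed here. NR5A1 had 4 probe sets, FOXL2 and CEBPB had 2 each, and GATA4, GATA6, NR5A2 and NR4A1 had 1 each.

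Gene expression was measured with Affymetrix bovine arrays in cumulus cells of crossbred cows (Bos indicus x Bos taurus), taken from ovaries collected after slaughter. Complexes from follicles of 8 mm or more (large follicles, called competent by the submitters) gave 3 arrays, and complexes from follicles of 1 to 3 mm (small follicles, called incompetent) gave the other 3. In both groups the complexes had a compact cumulus and a homogeneous cytoplasm, and each array carried RNA of pooled cells stripped by pipetting. The comparison asks how cumulus transcripts differ with follicle size, the study's stand-in for the capacity of the oocyte to develop. The titles call the arrays biological replicates, but neither the ages of the cows nor how many cows or complexes made up a pool is stated, so the p-values reflect variation from pool to pool only.

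GATA4 and GATA6 are zinc finger proteins that bind GATA motifs in promoters of steroid and inhibin genes. NR5A1 (also called SF-1) and NR5A2 (also called LRH-1) are nuclear receptors that bind the same DNA element as monomers. FOXL2 is a forkhead factor needed to keep ovarian somatic cells from taking on testicular features, which SOX9 drives. NR4A1 and CEBPB are induced quickly by gonadotropin and cAMP signals, and CEBPB, with RUNX1 and RUNX2, takes part in the change from granulosa to luteal cells around ovulation.

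Values are log2 signals, so 1 unit is a 2-fold difference, and differences are large minus small follicles. RMA gives no detection call. The lower quartile of the mean signals of all probe sets was 3.83 and serves here as the mark of a low signal. A probe set was called when its limma p-value, adjusted by Benjamini-Hochberg over all 24016 probe sets, was under 0.05. The array medians lay between 5.64 and 5.68. An index of RNA quality, the 3' minus the 5' probe set averaged over 6 control transcripts, averaged 1.98 ± 0.19 in large and 2.46 ± 0.27 in small follicles (SD, n = 3 each; 2-sided exact permutation test over arrays, p = 0.1, which is the lowest value 3 arrays a group can give). The index separated the groups, at 1.77 to 2.15 in large- and 2.16 to 2.68 in small-follicle arrays. In fits with it as a covariate, its part and that of follicle size therefore cannot be told apart. Of 10 measured granulosa and cumulus markers, such as the inhibin subunits INHA and INHBA and the follistatin gene FST, only KITLG had a low signal. Of these 10, 4 were called higher in large follicles and 0 lower, where 7.08% of all genes were called higher and 8.3% lower, and 2 were called higher with the RNA quality index as a covariate or without large-follicle replicate 1, large-follicle replicate 2 or small-follicle replicate 2. The part of this marker difference in the results for the factors was not tested.

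The factors split into those with more transcript in large follicles and those with no detected difference. GATA4, GATA6, NR5A2, NR4A1 and CEBPB rose, by 1.46-fold to 2.96-fold, and no member fell. NR5A1 and FOXL2 did not pass in any of their probe sets. In all, 6 of the 12 probe sets were called higher and 0 lower, where 5.72% of all probe sets were called higher and 7.16% lower, 12.9% in either direction. Members were chosen with earlier results of these data known, so this excess is not a test of the gene set. With the RNA quality index as a covariate 0 of the 12 were called. The groups did not overlap, with large follicles higher, in 6 of the 12, against 14.7% of all probe sets (30.9% in either direction). The median difference over the 12 was 0.43, against 0.01 over all probe sets. In whole pools, more RNA of a gene per cell and a larger share of cells that carry it cannot be told apart.

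**Figure D1:**
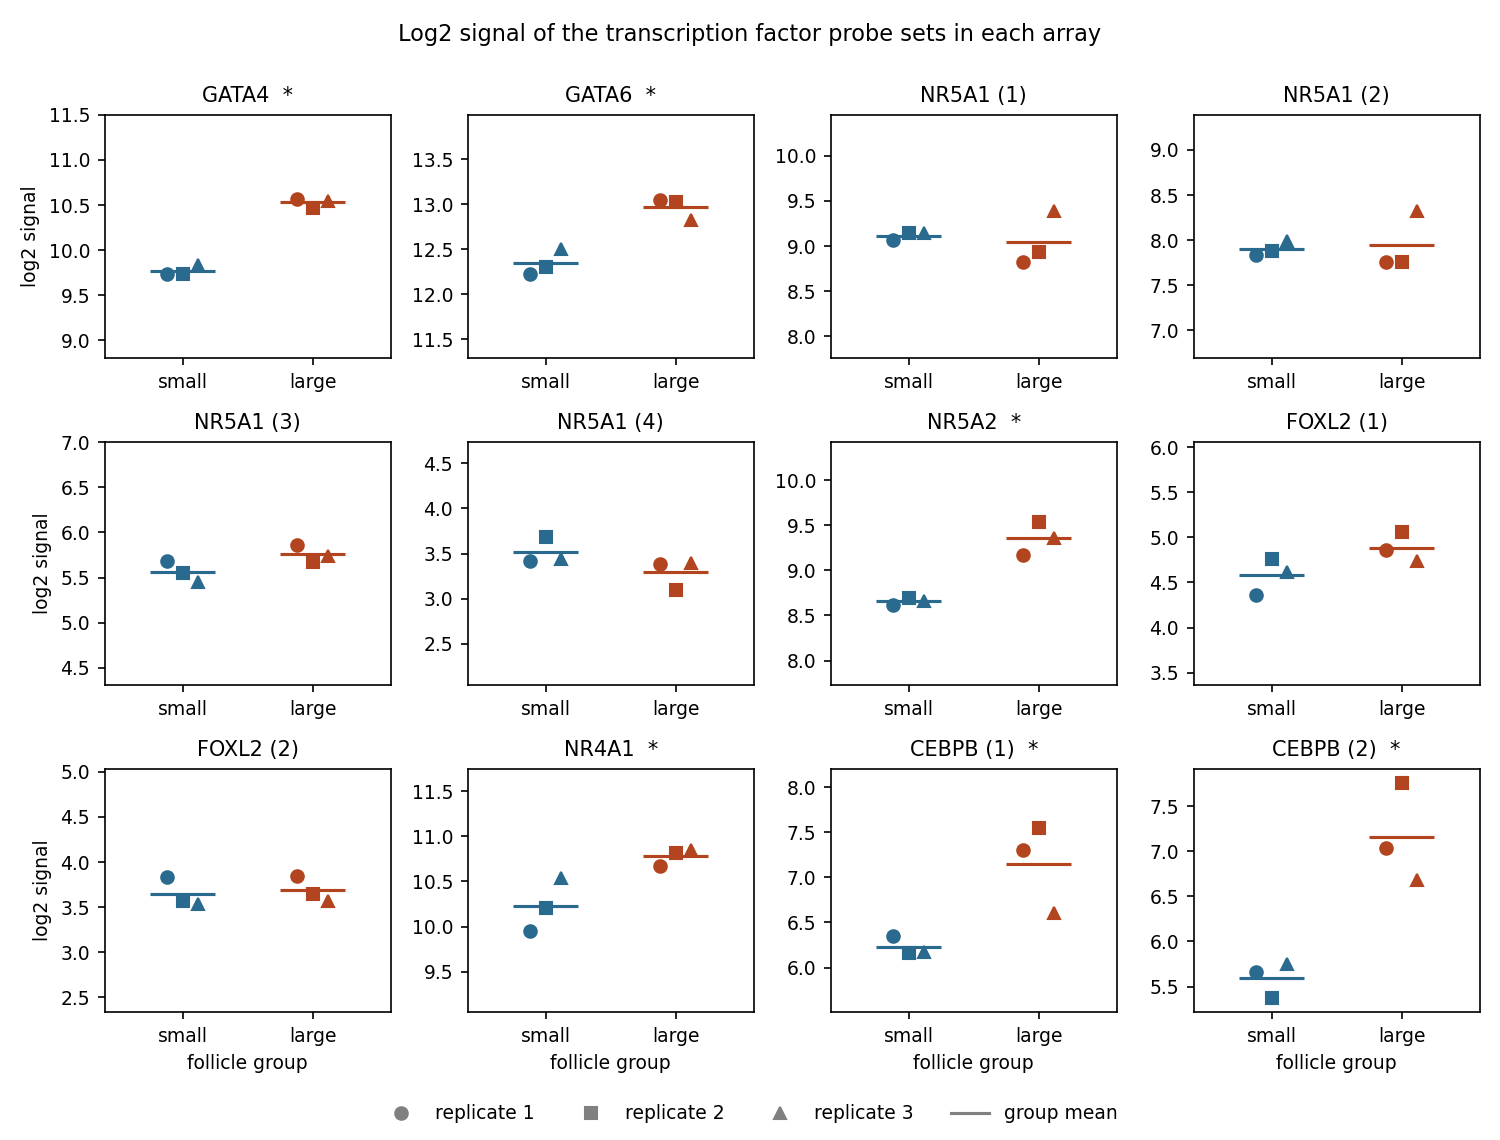
Log2 signal of the 12 probe sets in each of the 6 arrays, by follicle group, with a marker for each replicate and a line at each group mean; every panel spans the same number of log2 units, stars mark called probe sets, and probe sets of a gene are numbered from the highest mean signal down. GATA4 lay between 10.47 and 10.57 in large and between 9.73 and 9.84 in small follicles, whereas the groups overlapped in 3 of the 4 NR5A1 panels and in both FOXL2 panels.

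GATA4 had the smallest p among the members. It read 10.57, 10.47 and 10.55 in large-follicle replicates 1, 2 and 3 and 9.74, 9.73 and 9.84 in the small-follicle ones. The arrays of a group lay close together, and the gap of 0.63 between the groups was several times wider than the range within either. The means were 10.53 ± 0.053 and 9.77 ± 0.061 (SD, n = 3 each), a difference of 0.76 ± 0.09 (SE), 1.69-fold higher in large follicles (limma, adjusted p = 0.00241). The call held in every fit that left out 1 array, with differences from 0.74 to 0.80. With the RNA quality index as a covariate GATA4 read 0.74 ± 0.14 and was no longer called (adjusted p = 0.0645).

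GATA6, the other GATA factor of granulosa cells, rose by a similar amount. Large-follicle arrays read 13.05, 13.02 and 12.82, and small-follicle arrays 12.23, 12.30 and 12.50. All large-follicle arrays were higher, with the third replicate lowest in its group in large follicles and highest in its group in small ones. The means were 12.96 ± 0.13 and 12.34 ± 0.14 (SD, n = 3 each), a difference of 0.62 ± 0.11, or 1.54-fold (limma, adjusted p = 0.0111). The call held without any 1 array, from 0.56 to 0.70. It was lost with the RNA quality index (0.45, adjusted p = 0.208) and with the mean of the leukocyte markers (0.50, adjusted p = 0.0611) as a covariate.

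Whether both GATA transcripts changed alike was tested on their difference within each array. GATA4 minus GATA6 was 0.14 higher in large than in small follicles (-2.43 ± 0.15 against -2.57 ± 0.085, SD, n = 3 each), and the groups overlapped (exact permutation test, 2-sided, p = 0.2, adjusted over 2 pairs 0.2). The shift was 0.058 without large-follicle replicate 3 and at most 0.20 without any other array. No unequal change was detected with 3 arrays a group. The other GATA genes measured were GATA1 at -0.09 (95% interval -0.53 to 0.35) and GATA5 at 0.05 (-0.20 to 0.31), and neither was called.

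In the NR5A pair, NR5A2 was called and NR5A1 was not. NR5A2, which is needed in granulosa cells for ovulation in mice, read 9.17, 9.53 and 9.36 in large and 8.62, 8.69 and 8.66 in small follicles. The small-follicle arrays were nearly equal, and the lowest large-follicle array stood 0.48 above the highest of them. The means were 9.35 ± 0.18 and 8.66 ± 0.035 (SD, n = 3 each), a rise of 0.70 ± 0.11, or 1.62-fold (limma, adjusted p = 0.00697). NR5A2 kept its call without any 1 array (0.61 to 0.79) and with the leukocyte marker mean as a covariate (0.78, adjusted p = 0.0201). With the RNA quality index it read 0.53 and was not called (adjusted p = 0.154).

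NR5A1, the broader regulator of steroid-producing cells, was not called in any of its 4 probe sets. The probe set with the highest signal read 8.82, 8.93 and 9.39 in large and 9.07, 9.14 and 9.14 in small follicles, so that large-follicle arrays lay on both sides of the small-follicle ones. Its difference was -0.07 (95% interval -0.41 to 0.27, limma adjusted p = 0.825). The second probe set read 7.76, 7.76 and 8.32 against 7.84, 7.88 and 7.99, with the same array, large-follicle replicate 3, standing above the rest. Its difference was 0.04 (-0.32 to 0.41, limma adjusted p = 0.904), and it was -0.14 without that array. The third differed by 0.20 (-0.04 to 0.44) and the fourth, with a low signal, by -0.22 (-0.50 to 0.07), so the probe sets did not share a direction. In the fourth the large-follicle arrays (3.39, 3.10 and 3.40) all lay below the small-follicle ones (3.42, 3.68 and 3.44), by a gap of 0.02.

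The change of NR5A2 relative to NR5A1 was also read within arrays. With the brightest NR5A1 probe set, NR5A2 minus NR5A1 was 0.35, 0.60 and -0.03 in large-follicle arrays and -0.45, -0.45 and -0.48 in small-follicle arrays. All large-follicle arrays were higher, replicate 3 least so. The shift was 0.77 (exact permutation test, 2-sided, p = 0.1, the smallest possible here, adjusted over 2 pairs 0.2), so the test could not pass the 0.05 threshold. Set against the other NR5A1 probe sets the shift was 0.65, 0.50 and 0.91, and the groups were apart in each, the last of these against a probe set with a low signal. These are shifts of a ratio and give no comparison of the levels of both receptors.

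FOXL2 gave low to moderate signals and no call. Its brighter probe set read 4.86, 5.06 and 4.74 in large and 4.36, 4.76 and 4.62 in small follicles, a difference of 0.31 ± 0.13 (95% interval -0.002 to 0.61, limma adjusted p = 0.188). The lowest large-follicle array fell just below the highest small-follicle one. The dimmer probe set, with a low signal, read 3.84, 3.65 and 3.57 against 3.83, 3.57 and 3.53, a difference of 0.04 (-0.23 to 0.32). Both were designed on the same sequence record, and both intervals lie below a difference of 1, that is, below a 2-fold rise in signal. At signals this low, that does not bound the change of the transcript.

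NR4A1, an orphan nuclear receptor of the immediate early response, was called at the edge of the threshold. It read 10.67, 10.81 and 10.85 in large and 9.95, 10.20 and 10.54 in small follicles. The small-follicle arrays were spread over 0.59, and the highest of them, replicate 3, lay 0.13 below the lowest large-follicle array. The means were 10.78 ± 0.095 and 10.23 ± 0.30 (SD, n = 3 each), a rise of 0.55 ± 0.15, or 1.46-fold (limma, adjusted p = 0.0497). The call was lost without large-follicle replicate 1 (0.60), 2 (0.53) or 3 (0.51) and without small-follicle replicate 1 (0.41) or 2 (0.53), and held only without small-follicle replicate 3 (0.70, adjusted p = 0.0159). With the RNA quality index as a covariate NR4A1 read 0.15 (adjusted p = 0.668). Of the 6 arrays, small-follicle replicate 3 had an index of 2.16, near the large-follicle values of 1.77 to 2.15, and the other small-follicle arrays had 2.68 and 2.53. The part of the index in the NR4A1 difference and that of follicle size cannot be told apart.

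CEBPB, the leucine zipper factor C/EBP beta, had the largest differences among the members and the widest spread. The probe set designed on a RefSeq transcript read 7.03, 7.76 and 6.68 in large and 5.66, 5.37 and 5.75 in small follicles. Every large-follicle array was at least 0.93 above every small-follicle array, with replicate 2 highest and replicate 3 lowest. The means were 7.16 ± 0.55 and 5.59 ± 0.20 (SD, n = 3 each), a rise of 1.56 ± 0.25, or 2.96-fold (limma, adjusted p = 0.00672), and the call held without any 1 array (1.26 to 1.80).

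The other CEBPB probe set gave a smaller rise. It read 7.30, 7.55 and 6.61 against 6.35, 6.16 and 6.17, in the same order within large follicles. The difference was 0.93 ± 0.22, or 1.90-fold (limma, adjusted p = 0.0282). Its call was lost without large-follicle replicate 1 (0.85) or 2 (0.73) and without small-follicle replicate 1 (0.99), 2 (0.89) or 3 (0.90), and held without large-follicle replicate 3 (1.20). With the RNA quality index the CEBPB probe sets read 1.09 (adjusted p = 0.171) and 0.85 (adjusted p = 0.261).

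**Figure D2:**
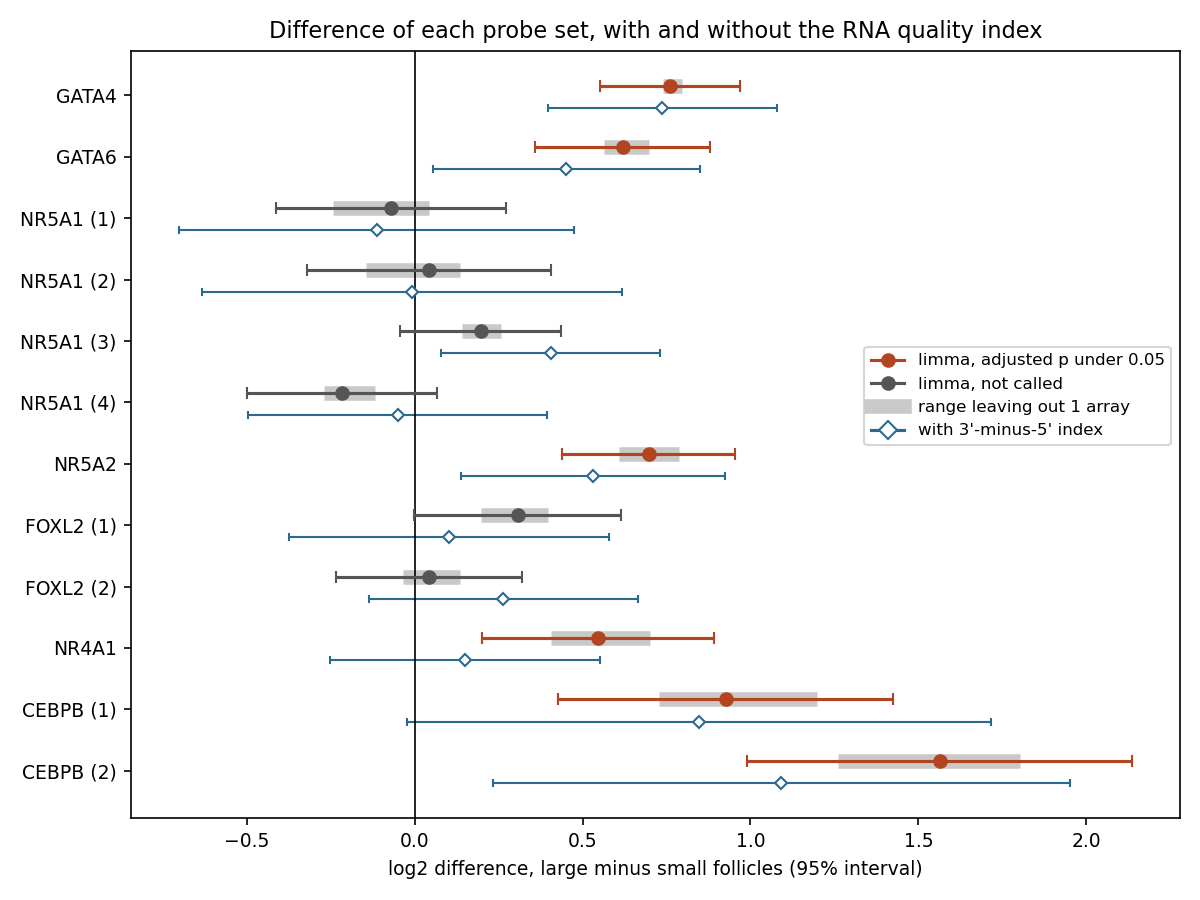
Log2 difference, large minus small follicles, of each of the 12 probe sets with its 95% interval from limma (circles, red where called), the range of the difference when 1 of the 6 arrays was left out (grey bars), and the difference with the 3'-minus-5' RNA quality index as a covariate (open diamonds). GATA4 read 0.76 without and 0.74 with the index, while NR4A1 went from 0.55 to 0.15.

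Leukocytes also express CEBPB and NR4A1, so their markers are given here. Of 15 leukocyte markers measured, 3 were called higher, 0 lower and 12 not at all, where 7.08% of all genes were called higher. All 15 were positive in sign when read from the brightest probe set, against 4710 of all 9155 genes. The called ones were the chemokine receptor CXCR4 at 0.90 ± 0.18, CORO1A at 0.62 ± 0.16 and LCP1 at 0.89 ± 0.24. The pan-leukocyte gene PTPRC and FCER1G had low signals, and the other PTPRC probe sets read -0.003 and -0.09. LCP1 lost its call under quantile and cyclic loess scaling, and CORO1A under cyclic loess scaling. The list averaged 5.56, 4.82 and 4.57 in large-follicle replicates 1, 2 and 3 and 4.35, 4.28 and 4.89 in the small-follicle ones. This mean was 0.47 higher in large follicles (exact permutation test over arrays, 2-sided, p = 0.3). With the leukocyte mean as a covariate the CEBPB probe sets read 1.49 (limma, adjusted p = 0.0361) and 0.79 (adjusted p = 0.13), GATA4 0.72 (adjusted p = 0.0182) and NR4A1 0.50 (adjusted p = 0.181). The leukocyte list had 1 call when large-follicle replicate 1 or 2 or small-follicle replicate 2 was left out, and 0 without small-follicle replicate 1 or with the RNA quality index as a covariate.

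Few markers of other cells were called, where 7.08% of all genes were called higher and 8.3% lower. In lists this short, few calls tell little. Of 8 theca markers, 8 stroma and fibroblast markers, 8 oocyte markers, 7 epithelial markers and 4 erythrocyte markers, 0 were called in the limma fit. Those with the smallest p were ACTA2 at 0.75 ± 0.24 for theca, COL1A2 at -1.08 ± 0.31 for stroma, OOEP at 0.40 ± 0.13 for oocytes, CDH1 at -0.35 ± 0.16 for epithelium and HBA at 0.40 ± 0.13 for erythrocytes. The second named were LHCGR at 0.31, PDGFRA at 1.37, BMP15 at 0.16, UPK3B at 0.29 and AHSP at 0.19. PDGFRA ranged from 0.82 to 1.66, BMP15 from 0.058 to 0.34 and AHSP from 0.11 to 0.27 when 1 array was left out, and the other PDGFRA probe sets read 0.07 and -0.06. Single calls appeared on leaving out an array, for COL1A2 (-1.33 with large-follicle replicate 1 and -1.37 with small-follicle replicate 2 left out), PDGFRA (0.82 without small-follicle replicate 1), and ACTA2 and OOEP (0.97 and 0.53 without small-follicle replicate 2). COL1A2 was also called lower under quantile scaling, with a filter at the lower quartile of signal and with the leukocyte mean as a covariate. Its other probe set read -1.29 without a call. ACTA2 was called higher with the replicate block, and PDGFRA and HBA with array weights. Low signals were read for 4 of the theca, 4 of the oocyte, 4 of the endothelial and 3 of the erythrocyte markers. Among 8 endothelial markers 1 was called, the angiopoietin receptor TEK at -0.57 ± 0.09, itself of low signal and not called with the RNA quality index. VWF read 0.46 and PECAM1 0.19. VWF was called higher without large-follicle replicate 2 and with array weights, and 1 endothelial marker was called higher with the RNA quality index. The list means overlapped between the groups for stroma (5.97 to 6.92 in large and 6.10 to 7.14 in small follicles) and for oocyte markers (4.09 to 4.15 and 3.97 to 4.14). The part of other cell types in the members' differences was not tested beyond the leukocyte covariate.

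The nearest paralogues of CEBPB and NR4A1 were also measured. CEBPD, the C/EBP family member of acute stress and hormone responses, rose in all 3 of its probe sets, by 1.22 ± 0.11, 1.47 ± 0.18 and 0.91 ± 0.11. The brightest read 11.39 ± 0.12 against 10.17 ± 0.11 (SD, n = 3 each; limma, adjusted p = 0.00105). It held without any 1 array (1.16 to 1.29) and, with the RNA quality index (1.22, adjusted p = 0.0458), while its other probe sets were not called with the index (1.21 and 1.01). CEBPG, a family member that dimerises with the others and lacks their activation domain, read -0.53 (95% interval -0.88 to -0.18) and was not called (adjusted p = 0.0576), and CEBPA had a low signal.

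NR4A2, the receptor most like NR4A1, fell by 0.50 ± 0.11 in its brightest probe set (4.89 ± 0.16 against 5.39 ± 0.075, SD, n = 3 each; limma, adjusted p = 0.0236). A probe set of nearly the same signal read 0.18 (adjusted p = 0.412), and the remaining pair, with low signals, read 0.09 and -0.03. The NR4A2 call was lost without large-follicle replicate 2 or 3 or small-follicle replicate 1 or 2 (-0.59 to -0.44 over all 6 such fits), and with the RNA quality index, where it read -0.31 (adjusted p = 0.332). The difference between NR4A1 and NR4A2 was not tested. Read from the brightest probe set of each gene, CEBPD and NR4A2 were the ones called among 11 measured paralogues, with a list median of 0.05, where 7.08% of all genes were called higher and 8.3% lower. The forkhead gene FOXP1, named after its values were seen, read 0.37 without a call in its brighter probe set and -0.82 with a call in the other (limma, adjusted p = 0.0317), so its probe sets disagree.

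**Figure D3:**
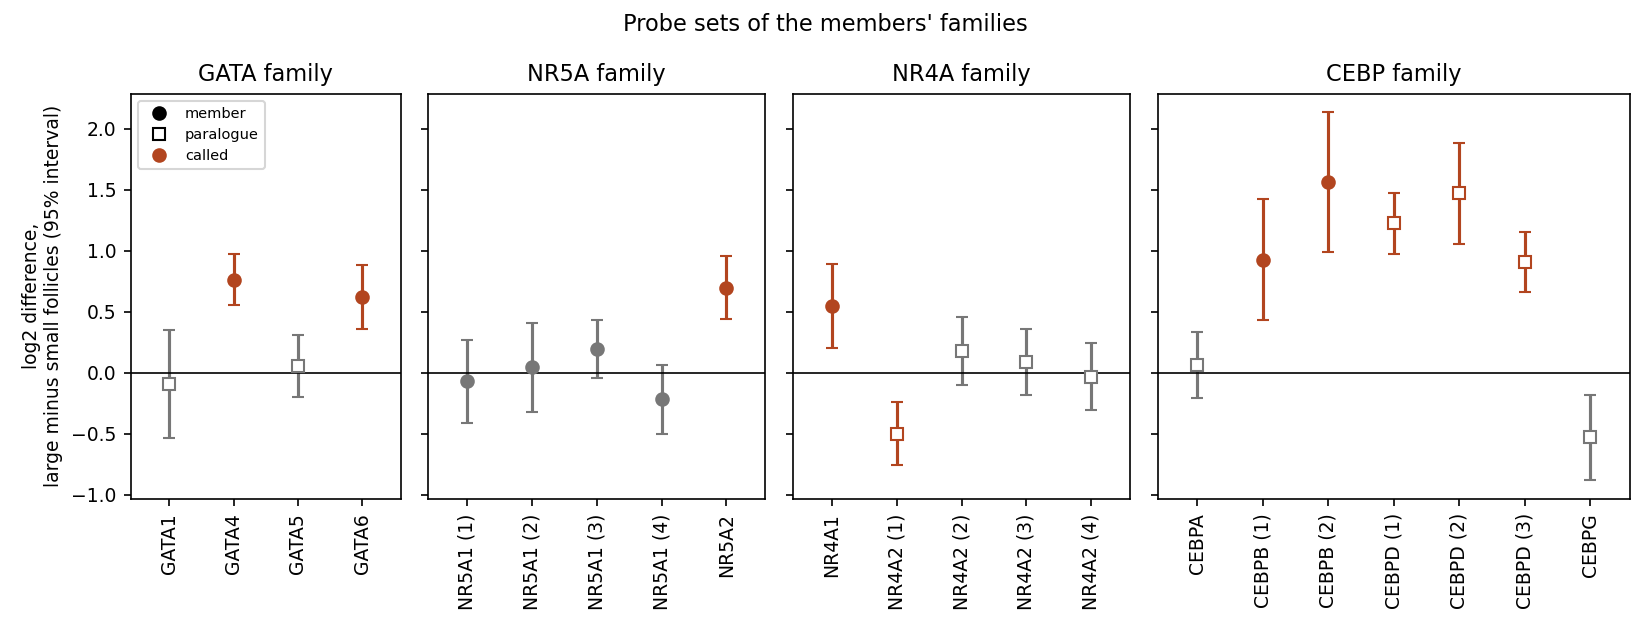
Log2 difference, large minus small follicles, with its 95% interval for every probe set of the GATA, NR5A, NR4A and CEBP families (circles, members; squares, paralogues; red, called), numbered within a gene from the highest mean signal down. All CEBPB and CEBPD probe sets lay between 0.91 and 1.56, while the 4 NR5A1 probe sets lay between -0.22 and 0.20.

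Among cofactors and partners of these factors, 4 of 14 measured genes rose and 0 fell, where 7.08% of all genes were called higher and 8.3% lower. The median difference was 0.28, against 0.01 over all genes. CITED1, which links transcription factors to the coactivators CBP and p300, rose by 0.81 ± 0.11 (10.94 ± 0.11 against 10.13 ± 0.11, SD, n = 3 each; limma, adjusted p = 0.00320). Its relative CITED4 rose by 0.51 ± 0.13 (limma, adjusted p = 0.0323), a call kept in 1 of 6 fits that left out an array, the one without large-follicle replicate 3 (0.41 to 0.59). PIAS1, a SUMO ligase, rose by 0.48 ± 0.10 and lost its call when replicate 2 of either group was left out (0.41 to 0.52 over the 6 fits). TLE1, a Groucho corepressor, rose by 0.83 ± 0.15 in its brightest probe set, but its others read -0.003 and 0.22 and were not called.

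Of the partners not called, CITED2 read 0.72 ± 0.22 (limma, adjusted p = 0.0721), and the WNT mediator CTNNB1 read -0.11. NR0B1, a repressor of NR5A1, read 0.12 in one probe set and -0.80 (adjusted p = 0.085) in another of nearly the same signal, neither of them called in limma. DDX20 and PPARGC1A were not called in their brightest probe sets, both at 0.37, but each had a dimmer one that was, at 0.86 and 0.90 (the latter with a low signal), so that 6 of the 14 genes were higher when read from the probe set with the smallest p. These 5 genes were named after their values were seen. With the RNA quality index as a covariate 0 of the 14 were called. When replicate 2 of either group was left out, 2 of them were.

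Among other transcription factors of the ovarian soma the calls were lower. Of 8 measured, 0 rose and 2 fell, against 8.3% of all genes called lower, with a list median of -0.01. NR2F2, a nuclear receptor known from theca and stroma, fell by 0.76 ± 0.11 (7.58 ± 0.16 against 8.34 ± 0.090, SD, n = 3 each; limma, adjusted p = 0.00468), and by 0.76 in its second probe set (limma, adjusted p = 0.00328). EMX2, a homeobox factor of gonad formation, fell by 0.66 ± 0.12 (limma, adjusted p = 0.0108). Both calls held without any 1 array and were lost with the RNA quality index, and that of EMX2 also with the leukocyte mean.

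Among 23 measured genes reported as direct or indirect targets of these factors, 7 rose and 1 fell, 15 did not pass, and the median was 0.26. This list shares genes with the granulosa and cumulus markers. The 4 markers called higher there are all among these 7, so the counts are not separate results. Over all genes 7.08% were called higher and 8.3% lower. INHBA, an activin subunit, rose by 1.14 ± 0.10, CYP11A1, which makes pregnenolone, by 1.72 ± 0.16 and the aromatase CYP19A1 by 2.14 ± 0.22, all 3 also without any 1 array and with the RNA quality index. CYP19A1 had a second called probe set at 1.30 and a further pair, with low signals, at 0.07 and 0.13. INHA rose by 0.42 ± 0.09 but was not called when large-follicle replicate 1 or 2, or small-follicle replicate 2 or 3, was left out (0.38 to 0.45 over the 6 fits). The 1 that fell was PTGS2, the inducible prostaglandin synthase and a target of CEBPB in luteinising granulosa cells, at -1.28 ± 0.20, and its 2 other probe sets, with low signals, read 0.06 and -0.14. With the RNA quality index 3 of the 23 were called higher and 0 lower, and PTGS2 lost its call (limma, adjusted p = 0.147).

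In the list for luteinisation, which shares genes with the targets, 4 of 12 rose and 0 fell, with a median of 0.28, against 7.08% of all genes called higher. Only CDKN1A of the 12 was called with the RNA quality index. CDKN1A, an inhibitor of cell cycle kinases, rose by 2.10 ± 0.11 (9.35 ± 0.14 against 7.25 ± 0.11, SD, n = 3 each; limma, adjusted p = 0.000265). VEGFA rose by 1.18 ± 0.19, the lipoprotein receptor SCARB1 by 0.63 ± 0.11 and the metalloproteinase inhibitor TIMP1 by 1.56 ± 0.34. The TIMP1 call was lost without large-follicle replicate 1 or 3 or small-follicle replicate 2 (1.20 to 1.87 over the 6 fits). Other genes of the list were not called: STAR read 0.91 ± 0.41 and HSD3B1 0.16 ± 0.16, while LHCGR, PGR, PRLR and PTGFR had low signals. These 6 genes were picked after their values were seen.

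**Figure D4:**
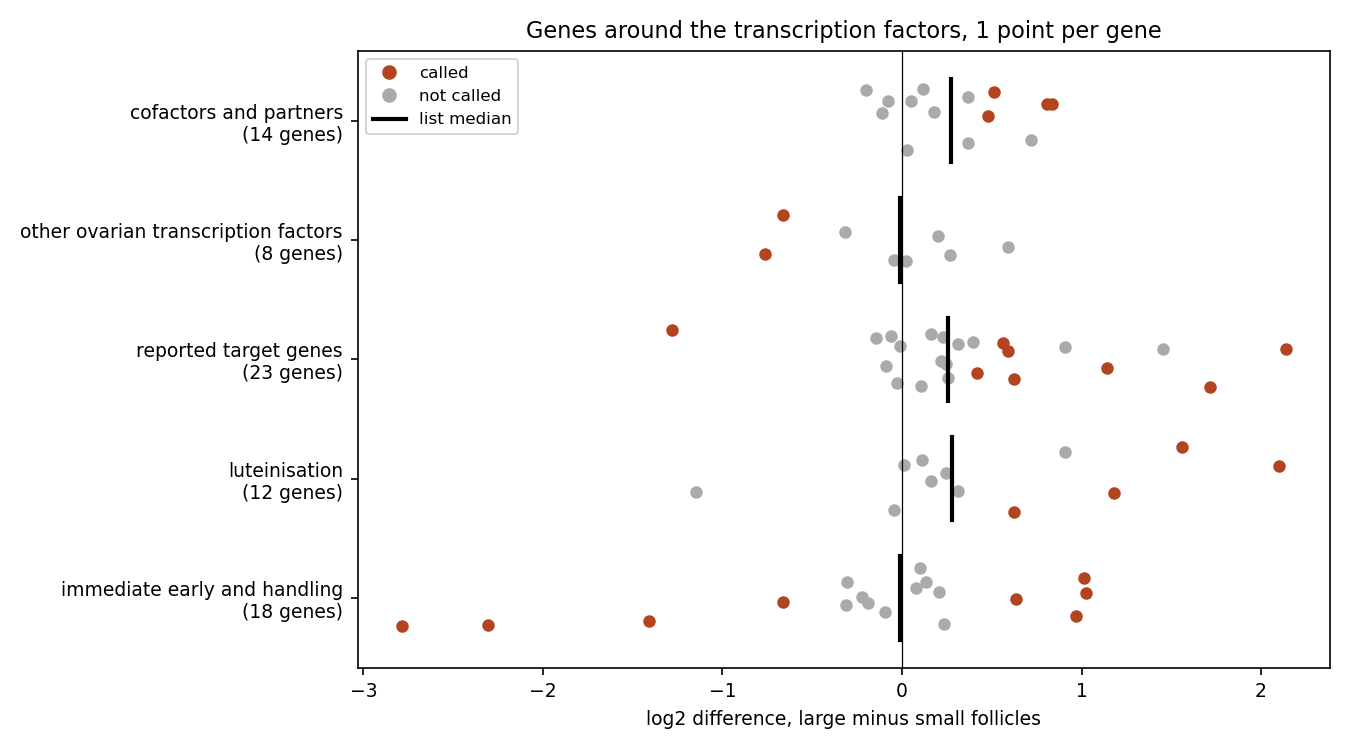
Log2 difference, large minus small follicles, of each measured gene in 5 lists around the members, 1 point per gene from its brightest probe set (red, called; grey, not called; black bar, list median; vertical position within a list is arbitrary). The medians were 0.28 for cofactors, -0.01 for other ovarian transcription factors, 0.26 for reported targets, 0.28 for luteinisation and -0.01 for immediate early and handling genes.

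Few genes on either side of gonad fate were measured, and over all genes 7.08% were called higher and 8.3% lower. On the ovarian side, opposed to SOX9 and supported by FOXL2, 1 of 7 rose, LEF1, a mediator of WNT signals, by 1.14 ± 0.13 (7.40 ± 0.20 against 6.25 ± 0.17, SD, n = 3 each; limma, adjusted p = 0.00219). FST read 0.23 and ESR1 0.27 without a call. On the Sertoli side 4 genes were measured and 1 was called, PTGDS, a prostaglandin D synthase, at -0.83 ± 0.13 (limma, adjusted p = 0.00537), with CLDN11 at 0.68 ± 0.48 and AMH at -0.06 ± 0.10. CLDN11 ranged from 0.18, without small-follicle replicate 1, to 1.10 when 1 array was left out, and its other probe set read 0.21. The LEF1 and PTGDS calls held without any 1 array and were lost with the RNA quality index.

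NR4A1 and CEBPB belong to the genes that respond within minutes to a signal or to handling of cells, and genes of this group were called in both directions. Of 18 measured immediate early and handling genes, 4 rose and 4 fell (22.2% each), with a median of -0.01. Over all genes 7.08% were called higher and 8.3% lower. The list counts were 1 and 1 with the RNA quality index, JUNB and DNAJB1, and ZFP36 and IER3 were not called. JUNB rose by 0.97 ± 0.09, ZFP36, which destabilises cytokine transcripts, by 1.01 ± 0.14 and IER3 by 1.02 ± 0.15. DNAJB1, a co-chaperone, fell by 2.79 ± 0.14. The others called were FOSL1 at 0.64, HSPA1A at -2.30, FOS at -0.66 and KLF4 at -1.41, named after their values were seen. The group's mean was 9.39 to 9.45 in large-follicle arrays and 9.58 to 9.74 in small-follicle arrays. It includes DNAJB1 and HSPA1A, which had the largest falls of those called, so it does not measure the immediate early genes alone. With this mean as a covariate 0 members were called, and since it separates the groups, its part and that of follicle size cannot be told apart.

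The genes whose pattern over the 6 arrays was nearest to each called member were found by the root mean square distance between centred log2 values. For GATA4 they were NAPB, MAP2K1 and TPT1, at 0.0414, 0.0437 and 0.0446 log2 units, with Pearson r of 0.998, 0.994 and 0.993. GATA6 was nearest to BCAR3, RAB7A and VAT1 (0.0431, 0.0496 and 0.0505), and NR5A2 to ATG101, ING2 and SMIM1 (0.0394, 0.0475 and 0.0476). NR4A1 was nearest to SPSB1, QSOX1 and DTNBP1 (0.0367, 0.0437 and 0.0471). CEBPB, read from its brighter probe set, had no match as near by this distance, with SYNE1, RSBN1 and SMTNL2 at 0.121, 0.128 and 0.129. Their Pearson r was 0.983, 0.977 and 0.993, and SMTNL2 had a low signal. With 6 arrays and a group difference in common, such likeness is a description only.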

How the data were processed

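The data are 6 Affymetrix bovine arrays, 3 of large-follicle and 3 of small-follicle cumulus cells. The authors deposited 1 log2 signal per probe set and array. Per the submitters' processing notes the method was RMA, and the sources used here name no software, version or settings. Of 24128 probe sets, 112 controls were left out. Of the 24016 others, 13292 carry 1 gene symbol, 86 several and 10638 none, and the symbols name 9155 genes. Gene identifiers of 13263 probe sets matched the RefSeq annotation of ARS-UCD2.0, used for names only, and 0 symbols changed.

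Differences were fitted over all 24016 probe sets with limma 3.58.1 in R 4.3.3 (lmFit, eBayes, no block, no filter on low signals), with 2-sided tests and Benjamini-Hochberg adjustment. The prior had 4.28 degrees of freedom. Intervals are 95% limma intervals. Groups were taken from the labels, and the number of arrays limits the precision. In gene lists the brightest probe set stood for a gene, and lists were counted, not tested. Within-array differences between paralogues were compared by exact permutation tests over arrays.

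All members are named with every probe set. From each list up to 4 called genes with the smallest p were named (3 for cell types), and up to 2 further ones where fewer than 2 were called. Members and lists were chosen with earlier results of these data known. Alternatives were leaving out each array, a replicate block, scalings, filters, array weights, a trended robust prior, other thresholds, gene means, covariates, and dropping probe sets of less specific design. The immediate early covariate was chosen after seeing the data. The fit was checked on simulated arrays. Figures were drawn with matplotlib 3.10.9 in python 3.11.15.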

Additional observations from a re-analysis of the deposited data

How the results depend on the processing

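The 6 called member probe sets stayed called under quantile, cyclic loess and median scaling. Leaving out 1 array gave 4 to 5 calls among members, 787 to 1142 higher and 828 to 1337 lower over the whole table. The titles number the replicates but do not say whether the numbers pair the arrays. Deviations of same-numbered arrays from their group means correlated at -0.00194, -0.0539 and -0.343, and those of other pairs at -0.277 to 0.318. Deviations from a mean of 3 arrays constrain one another, so these values cannot decide whether the arrays were paired. With the replicate block 6 members were called, PIAS1, CITED4, INHA, CORO1A and LCP1 lost their calls, and 930 probe sets higher and 1034 lower against 1374 and 1720. The RNA quality index left 0 members called (99 higher and 116 lower over all), the leukocyte mean 3 (672 and 805), the immediate early mean 0 (1 and 2), and a threshold of 0.01 left 3 (528 and 535). Gene means gave 728 and 745 calls of 9155 genes. Filters on signal removed the dim NR5A1 and FOXL2 probe sets, which then have no value.

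Signs turned only in uncalled results. The brightest NR5A1 probe set (-0.07) ranged from -0.24 to 0.043 without 1 array, and read 0.083 with the leukocyte and 0.17 with the immediate early mean. The second (0.04) ranged from -0.14 to 0.14, and read -0.014 with array weights and -0.0076 with the RNA quality index. The dim one read 0.23 with the immediate early mean. The dim FOXL2 probe set ranged from -0.033 to 0.14, and read -0.012 with the leukocyte and -0.17 with the immediate early mean. AMH read 0.026 with the RNA quality index and 0.045 with the immediate early mean, and BMP15 -0.17 with the latter. The cause was not tested. With 3 arrays a group, small differences could not be resolved. This held at low signals and at higher ones, such as the brightest NR5A1 probe set (mean 9.08) and AMH (mean 10.98).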
